A study of Mus musculus with 2 samples.

Results

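The genes described here are Cxcl12, Cxcr4 and Ackr3, which encode a chemokine and its 2 receptors. They were taken by name as 3 of the 17139 genes that both libraries list, and all 3 were measured in every endothelial state of each library. The study asked how endothelial cells (ECs) of implanted Lewis lung carcinoma (LLC) tumours respond to an activator of the innate DNA sensor STING. LLC cells were grown under the skin of adult male C57BL/6 J mice without a transgene, and the tumours received an intratumoural (i.t.) injection of PBS or of the cyclic dinucleotide cGAMP. Live CD31+ and CD45- cells were sorted from 1 mouse per treatment for droplet-based scRNA-seq, on the day after injection according to the methods, although a legend of the study gives a shorter time for the same kind of sample. The PBS library held 2517 ECs and the cGAMP library 1340 ECs.

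CXCL12 is a secreted chemokine that binds to heparan sulphate on cell surfaces and in the matrix, and in blood vessels it is made chiefly by arterial and hypoxic endothelium and by stromal cells. CXCR4 is the G protein-coupled receptor through which CXCL12 directs migration, and in sprouting vessels it is known as a gene of tip cells. ACKR3, also called CXCR7, binds CXCL12 and takes it up for degradation without the usual G protein signalling, so that it lowers the amount of ligand around a cell. Hypoxia, VEGF, Notch signalling and blood flow are known to act on genes of this axis.

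On GRCm38, Cxcl12 (ENSMUSG00000061353) spans chr6:117168535-117181367 on the plus strand. Cxcr4 (ENSMUSG00000045382) spans chr1:128588199-128592293 on the minus strand, and Ackr3 (ENSMUSG00000044337) spans chr1:90203980-90216751 on the plus strand. Cxcl12 has 3 coding transcripts in the annotation, known to differ towards the 3' end, and the deposited values give 1 number per gene, so its isoforms cannot be told apart. The promoters are shown because the 3 genes differed between states and libraries, and a reader may want to set their sequence beside those differences. They are the 250 bases before the RefSeq start of each gene on GRCm38.p6, 5′ to 3′ on the strand of the gene, at chr6:117168285-117168534, chr1:128592300-128592549 and chr1:90203730-90203979, with capitals at matches to the motifs searched.
Cxcl12: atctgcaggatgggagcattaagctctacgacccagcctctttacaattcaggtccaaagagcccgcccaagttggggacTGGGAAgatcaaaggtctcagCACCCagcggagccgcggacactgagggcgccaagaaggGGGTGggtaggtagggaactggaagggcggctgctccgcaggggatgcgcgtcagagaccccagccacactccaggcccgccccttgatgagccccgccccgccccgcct
Cxcr4: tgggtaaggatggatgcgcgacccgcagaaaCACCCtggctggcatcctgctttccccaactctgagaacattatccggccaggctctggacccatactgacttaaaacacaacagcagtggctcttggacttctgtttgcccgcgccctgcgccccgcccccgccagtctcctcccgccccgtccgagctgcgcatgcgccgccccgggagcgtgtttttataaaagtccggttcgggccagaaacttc
Ackr3: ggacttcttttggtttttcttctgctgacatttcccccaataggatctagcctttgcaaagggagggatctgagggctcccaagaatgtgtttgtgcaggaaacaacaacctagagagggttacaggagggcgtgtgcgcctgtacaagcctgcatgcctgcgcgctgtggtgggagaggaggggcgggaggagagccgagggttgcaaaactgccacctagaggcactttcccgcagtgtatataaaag
The motifs were the hypoxia response core ACGTG, the RBPJ core TGGGAA of Notch signalling, the interferon response element, the STAT element TTCNNNGAA and the Klf element CACCC, each read on both strands. The Cxcl12 promoter held TGGGAA from base -170, a sequence present in 21.6% of the 32851 promoters of the same length, and a Klf element from bases -149 and -110. The Cxcr4 promoter held a Klf element from base -219, and 52.0% of all promoters hold at least 1. The Ackr3 promoter matched none of the 5 motifs, and the hypoxia, interferon and STAT elements, found in 16.6%, 2.98% and 7.02% of promoters, were in none of the 3. These are matches of letters in short windows and say nothing on binding.

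The PBS library held 92081146 unique molecular identifiers (UMIs) with a median of 29780 per cell, and the cGAMP library 63366746 with a median of 41178. Levels are given as counts per 1000000 UMIs (CPM), summed over the cells of a group, and 95% intervals are exact and cover counting error only. The intervals of levels treat UMIs as independent, although many UMIs of a gene can come from a single cell. Intervals of levels that do not overlap are therefore no test of a difference between states. With 1 library per treatment there is no replicate error, no test was possible, and the effect of cGAMP cannot be told apart from differences between the mice, sorts or libraries. The 8 endothelial markers summed to 4505 CPM in the PBS library and 4998 CPM in the cGAMP library, and 1 cell barcode occurred in both libraries. Leucocyte markers summed to 18.3 and 22.7 CPM, neutrophil markers to 0.652 and 17.0 CPM, macrophage markers to 10.0 and 18.4 CPM, fibroblast markers to 4.58 and 2.90 CPM, and mural cell markers to 40.3 and 45.7 CPM, the last mostly from Kcnj8, which the tip-like ECs carried.

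Clustering that left out the 3 genes gave 9 states, each called here by its 2 leading genes. The Gja5-Gja4 state (351 ECs with PBS and 170 with cGAMP) and the Slc6a6-Lpl state (65 and 55 ECs) were arterial-like, the latter with 5 raised capillary markers as well. The Selp-Ackr1 state (416 and 379 ECs) was stalk-like, with venous markers. The Gal-Chga state (363 and 117 ECs) and the Ankrd1-Pgf state (123 and 61 ECs) were tip-like, and the latter led with the hypoxia genes Bnip3, Egln3 and Ero1l. The Hist1h1b-Hist1h2ap state (416 and 222 ECs) and the Cenpf-Ube2c state (252 and 72 ECs) were proliferative. The Esm1-Apln state (487 and 212 ECs) and the Igfbp5-Ctsh state (44 and 52 ECs) were left unnamed and are in none of these classes. The Esm1-Apln state had 4 tip markers among its 10 leading genes but 0 raised 2-fold. The Igfbp5-Ctsh state had 13 raised stalk markers, but its 10 leading genes held 1 arterial and 0 stalk markers.

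The ligand Cxcl12 was concentrated in 2 small states of different kind. In the PBS library it stood at 1168 CPM (1108 to 1230) in the arterial-like Slc6a6-Lpl state and at 527 CPM (506 to 549) in the tip-like Ankrd1-Pgf state. It followed at 142 CPM in the Gja5-Gja4 state, 101 CPM in the Hist1h1b-Hist1h2ap state, 53.6 CPM in the Gal-Chga state, 49.3 CPM in the Cenpf-Ube2c state, 45.2 CPM in the Esm1-Apln state and 30.5 CPM in the Selp-Ackr1 state. In the Igfbp5-Ctsh state 2 UMIs were counted in 44 ECs. The counting interval of the Cenpf-Ube2c state overlapped those of the Gal-Chga and Esm1-Apln states, which did not overlap each other. Single cells held up to 72 Cxcl12 UMIs in the Gal-Chga state and 92 in the Esm1-Apln state. With each cell thinned to the same number of UMIs, 14.8% (11.3 to 18.9) and 12.6% (9.76 to 15.9) of their ECs held Cxcl12, and these intervals overlapped. Whether the levels of these states differ was not tested. Arterial-like ECs together had 2.97 times the Cxcl12 level of the other ECs with PBS and 2.47 times with cGAMP. Of their states, Slc6a6-Lpl had 12.9 and 5.40 times the level of the other ECs, and Gja5-Gja4 had 1.43 and 1.57 times. Tip-like ECs together had 1.90 and 4.66 times, with Ankrd1-Pgf at 6.33 and 11.2 times and Gal-Chga at 0.471 and 0.945 times.

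In the cGAMP library the 2 highest states changed places. The Ankrd1-Pgf state had 1036 CPM of Cxcl12 (996 to 1076) and the Slc6a6-Lpl state 639 CPM (598 to 682). The Gja5-Gja4 state had 193 CPM, the Esm1-Apln state 127 CPM, the Gal-Chga state 124 CPM, the Hist1h1b-Hist1h2ap state 67.1 CPM and the Cenpf-Ube2c state 63.1 CPM. The Selp-Ackr1 state had 11.4 CPM and the Igfbp5-Ctsh state 6.96 CPM, and these 2 overlapped, as did the Esm1-Apln with the Gal-Chga state and the 2 proliferative states with each other. The Ankrd1-Pgf state was 4.89% of the PBS-treated ECs and held 24.3% of their Cxcl12 UMIs, and was 4.55% of the cGAMP-treated ECs with 31.6% of theirs. The Slc6a6-Lpl state held 14.8% and 11.1% of the Cxcl12 UMIs in 2.58% and 4.10% of the cells.

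The receptor Cxcr4 was highest in the tip-like states. In the PBS library it stood at 236 CPM (228 to 244) in the Gal-Chga state and 223 CPM (209 to 237) in the Ankrd1-Pgf state, which overlapped. The Esm1-Apln state had 93.0 CPM, the Cenpf-Ube2c state 44.9 CPM, the Gja5-Gja4 state 44.7 CPM and the Hist1h1b-Hist1h2ap state 32.0 CPM. The lowest levels were 10.4 CPM in the Selp-Ackr1 state and 7.36 CPM in the Slc6a6-Lpl state, and the Igfbp5-Ctsh state had 30 UMIs, 29 of them in 1 cell. In the cGAMP library the order was similar, with 226 CPM in the Gal-Chga state, 115 CPM in the Ankrd1-Pgf state, 51.4 CPM in the Esm1-Apln state, 24.1 CPM in the Cenpf-Ube2c state, 16.7 CPM in the Gja5-Gja4 state, 11.8 CPM in the Hist1h1b-Hist1h2ap state and 5.16 CPM in the Selp-Ackr1 state. The Igfbp5-Ctsh and Slc6a6-Lpl states had 3 and 1 UMIs there. Tip-like ECs, 19.3% and 13.3% of the cells, had 4.85 times and 10.1 times the Cxcr4 level of the other ECs with PBS and cGAMP.

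The scavenging receptor Ackr3 shared the tip-like states with Cxcr4 but was also high where Cxcr4 was nearly absent. In the PBS library it had 169 CPM (145 to 197) in the Igfbp5-Ctsh state and 160 CPM (153 to 167) in the Gal-Chga state, which overlapped. The Ankrd1-Pgf state had 115 CPM and the Esm1-Apln state 66.4 CPM, while the Hist1h1b-Hist1h2ap, Cenpf-Ube2c and Gja5-Gja4 states lay between 29.3 and 32.3 CPM with overlapping intervals. The Selp-Ackr1 state had 9.73 CPM and the Slc6a6-Lpl state 8.18 CPM. In the cGAMP library Ackr3 was highest in the Gal-Chga state at 216 CPM (204 to 229), followed by 157 CPM in the Igfbp5-Ctsh state, 117 CPM in the Ankrd1-Pgf state, 89.4 CPM in the Esm1-Apln state and 62.2 CPM in the Gja5-Gja4 state. The Cenpf-Ube2c state had 43.0 CPM, the Slc6a6-Lpl state 42.4 CPM, the Hist1h1b-Hist1h2ap state 28.7 CPM and the Selp-Ackr1 state 20.5 CPM. Stalk-like ECs had 0.144 and 0.253 times the Ackr3 level of the other ECs with PBS and cGAMP, a mean log2 ratio of -2.39 that was -1.40 at a lower clustering resolution and -0.96 without integration of the libraries. The stalk-like class leaves out the Ackr3-high Igfbp5-Ctsh state, in which 13 stalk markers were raised.

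**Figure D1:**
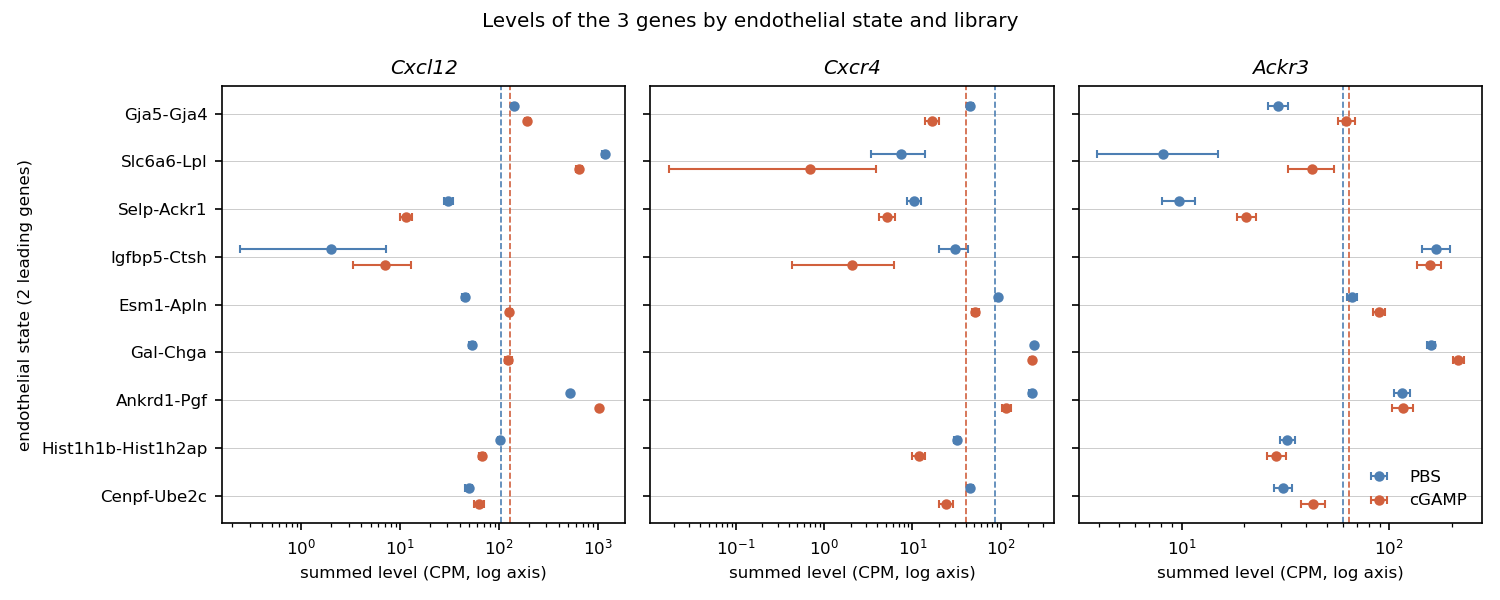
Summed level of each gene in CPM (log axis) in the 9 states, with PBS in blue, cGAMP in red, bars for exact Poisson 95% intervals of the counts and dashed lines for the level over all ECs of a library. Cxcl12 peaks in the Slc6a6-Lpl state at 1168 CPM with PBS and in the Ankrd1-Pgf state at 1036 CPM with cGAMP, Cxcr4 peaks in the Gal-Chga state at 236 and 226 CPM, and Ackr3 is high in the Igfbp5-Ctsh state as well as in both tip-like states.

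A gene was called raised in a state when it was at least 2-fold above the other ECs in both libraries. Cxcl12 was raised in the Slc6a6-Lpl state, where 3.79% of the compared genes were, and in the Ankrd1-Pgf state, where 2.63% were. Cxcr4 was raised in the Ankrd1-Pgf state and in the Gal-Chga state, where 2.49% of the compared genes were, and Ackr3 in the Gal-Chga state and the Igfbp5-Ctsh state, where 6.86% were. No member was raised in the Gja5-Gja4 (1.30% of compared genes), Selp-Ackr1 (1.68%), Hist1h1b-Hist1h2ap (4.75%), Cenpf-Ube2c (2.26%) or Esm1-Apln state (0%). The proliferative states were below the other ECs for Cxcr4 and Ackr3 in both libraries, at 0.348 and 0.318 times their level for Cxcr4 and 0.429 and 0.436 times for Ackr3.

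**Figure D2:**
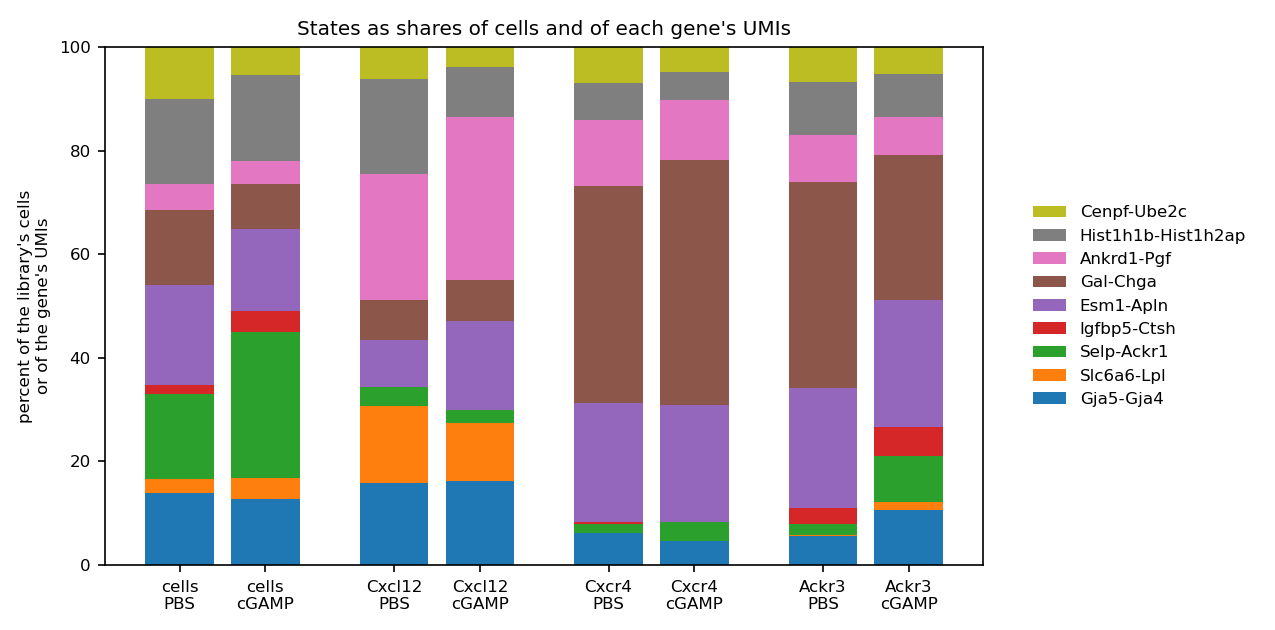
Stacked bars of the 9 states as percent of the cells of each library and as percent of the UMIs of each gene. The Ankrd1-Pgf state makes up 4.89% and 4.55% of cells but 24.3% and 31.6% of the Cxcl12 UMIs, and the Gal-Chga state makes up 14.4% and 8.73% of cells but 41.8% and 47.3% of the Cxcr4 UMIs and 39.7% and 28.1% of the Ackr3 UMIs.

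Over all ECs, Cxcr4 was lower in the cGAMP library, Cxcl12 was higher and Ackr3 was nearly level. Cxcr4 had 84.7 CPM (82.8 to 86.6) with PBS and 39.8 CPM (38.3 to 41.4) with cGAMP, a log2 ratio of -1.09 (-1.15 to -1.02). Of the 9509 genes compared, which reached 5 CPM on at least one side, 1.70% were 2-fold or more lower with cGAMP, and 116 had a lower ratio than Cxcr4. The 2-fold difference of Cxcr4 was not reached with median-of-ratios scaling (-0.9998) or with the proportions of the states held equal (-0.71). Cxcl12 had 105 CPM (103 to 107) and 130 CPM (127 to 133), a log2 ratio of 0.32 (0.27 to 0.36), and 1211 genes had a higher ratio. Ackr3 had 60.3 CPM (58.7 to 61.9) and 64.2 CPM (62.2 to 66.2), a log2 ratio of 0.09 (0.03 to 0.15). Neither of these 2 reached the 2-fold that 1.82% of the genes exceeded upwards, and the median log2 ratio of all compared genes was -0.08. The ratio of Cxcl12 rests on how cells are weighted, since the mean of the per-cell CPM gave a log2 ratio of 0.11.

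The share of ECs with a UMI was lower with cGAMP for Cxcr4, while for Cxcl12 the sign of its small difference changed with depth. After each cell was thinned to 5000 UMIs, Cxcr4 was found in 23.3% of ECs with PBS (21.6 to 25.0) and in 11.4% with cGAMP (9.72 to 13.2). Cxcl12 was found in 21.4% (19.8 to 23.1) and 20.8% (18.6 to 23.1), and Ackr3 in 19.9% (18.3 to 21.5) and 20.7% (18.6 to 23.0). For Cxcl12 the difference of cGAMP minus PBS was -0.57 percentage points at this depth, 1.59 at 2500 UMIs and 1.98 at 10000 UMIs. Without thinning the shares were 45.6% and 27.2% for Cxcr4, 44.1% and 42.7% for Cxcl12, and 51.3% and 57.7% for Ackr3. The lowest thinned shares in a state of the PBS library were 0 of 43 ECs for Cxcl12 in the Igfbp5-Ctsh state, 0 of 57 ECs for Ackr3 in the Slc6a6-Lpl state and 3.46% for Cxcr4 in the Selp-Ackr1 state, at the same depth. The upper limits of the 2 empty counts were 8.22% and 6.27%. The 10% of cells with the most UMIs of a gene held 72.7% and 74.7% of the Cxcl12 UMIs, 58.5% and 78.7% of the Cxcr4 UMIs and 50.9% and 50.8% of the Ackr3 UMIs, with a maximum of 239 Cxcl12 UMIs in 1 cGAMP-treated EC.

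Within states the ligand moved in both directions. Cxcl12 was higher with cGAMP in the Esm1-Apln state by a log2 ratio of 1.49 (1.37 to 1.61), where 1.59% of genes were 2-fold or more higher, and in the Gal-Chga state by 1.21 (1.05 to 1.36), where 1.99% were. In the Ankrd1-Pgf state the log2 ratio was 0.97 (0.89 to 1.05) and in the Gja5-Gja4 state 0.44 (0.33 to 0.54). It was lower in the Selp-Ackr1 state, with -1.42 (-1.68 to -1.17), where 4.14% of genes were 2-fold or more lower, and in the Slc6a6-Lpl state, with -0.87 (-0.99 to -0.75). The Hist1h1b-Hist1h2ap state had -0.59 (-0.71 to -0.47) and the Cenpf-Ube2c state 0.35 (0.15 to 0.55), while 2 and 10 UMIs in the Igfbp5-Ctsh state gave an interval from -0.42 to 5.04. The thinned share of cells with Cxcl12 moved in the same directions as the level in the Esm1-Apln state, from 12.6% to 23.9%, and in the Slc6a6-Lpl state, from 87.7% to 69.8%. It did not follow the level in the Gja5-Gja4 state, with 38.1% and 37.9%, or in the Cenpf-Ube2c state, with 12.0% and 9.86%.

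Cxcr4 was lower with cGAMP by more than counting error in 8 of the 9 states, and in 7 when 1 cell of the Igfbp5-Ctsh state was left out. The share of all genes that differ by more than counting error is not given here, so this count of states has no baseline. The log2 ratio was -1.42 (-1.73 to -1.13) in the Gja5-Gja4 state, where 3.74% of genes were 2-fold or more lower, -1.43 (-1.71 to -1.17) in the Hist1h1b-Hist1h2ap state, where 1.58% were, and -1.01 (-1.42 to -0.61) in the Selp-Ackr1 state. It was -0.96 in the Ankrd1-Pgf state, -0.90 in the Cenpf-Ube2c state and -0.86 in the Esm1-Apln state. In the Slc6a6-Lpl state 9 and 1 UMIs were counted, and in the Igfbp5-Ctsh state 30 and 3 UMIs, in states where 8.58% and 7.46% of genes were 2-fold or more lower. Without the cell that held 29 of the 30 UMIs, the Igfbp5-Ctsh state had 1 and 3 UMIs and a log2 ratio of 0.97 (-2.67 to 6.69). The other exception was the Gal-Chga state, in which Cxcr4 is highest, with a log2 ratio of -0.06 (-0.16 to 0.03) and a thinned share of 56.5% with PBS and 53.0% with cGAMP.

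Ackr3 was higher with cGAMP by more than counting error in 6 of the 9 states, a count that likewise has no baseline from all genes. The log2 ratio was 2.37 (1.40 to 3.50) in the Slc6a6-Lpl state, from 10 and 61 UMIs, where 5.53% of genes were 2-fold or more higher. It was 1.08 (0.87 to 1.30) in the Gja5-Gja4 state, where 2.38% of genes were, and 1.08 (0.77 to 1.39) in the Selp-Ackr1 state, where 2.40% were. The Cenpf-Ube2c, Gal-Chga and Esm1-Apln states had log2 ratios of 0.48, 0.44 and 0.43. The intervals of the Igfbp5-Ctsh state (-0.41 to 0.18), the Ankrd1-Pgf state (-0.19 to 0.23) and the Hist1h1b-Hist1h2ap state (-0.37 to 0.03) held 0.

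**Figure D3:**
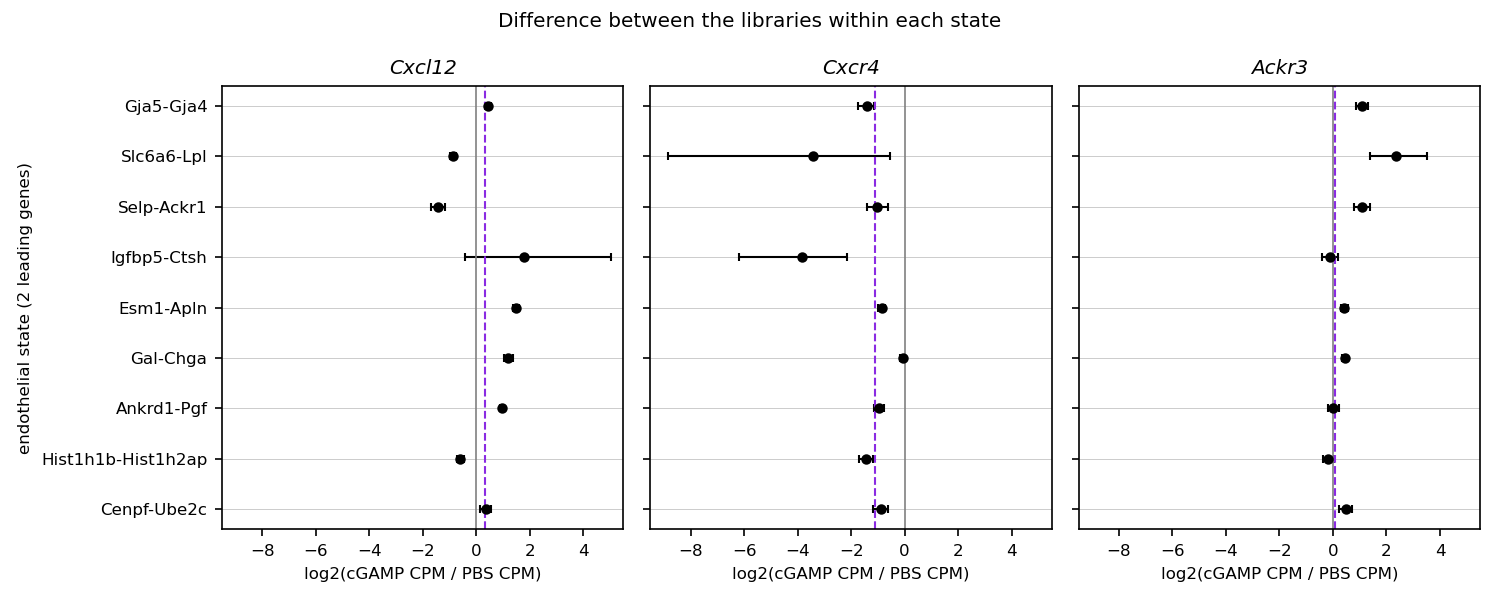
The log2 ratio of cGAMP over PBS for each gene within the 9 states, with exact 95% counting intervals, a grey line at 0 and a dashed line at the ratio over all ECs. Cxcl12 runs from -1.42 in the Selp-Ackr1 state to 1.49 in the Esm1-Apln state among states with more than 10 UMIs per library, Cxcr4 lies below 0 except in the Gal-Chga state, whose interval holds 0, with the Igfbp5-Ctsh value resting on 1 cell, and no state has an Ackr3 interval wholly below 0.

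The number of Ackr3 UMIs per Cxcr4 UMI does not depend on how the libraries are scaled, and it was higher with cGAMP in 8 of the 9 states, with the ninth, Igfbp5-Ctsh, resting on 1 cell. Over all ECs it was 0.712 with PBS and 1.61 with cGAMP. It was 0.656 and 3.72 in the Gja5-Gja4 state, 0.935 and 3.98 in the Selp-Ackr1 state, and 0.714 and 1.74 in the Esm1-Apln state. In the tip-like states it was 0.676 and 0.956 for the Gal-Chga state and 0.516 and 1.02 for the Ankrd1-Pgf state. In the Slc6a6-Lpl state the cGAMP value rested on 1 Cxcr4 UMI. In the Igfbp5-Ctsh state the ratio was 5.67 and 75.0. Without the 1 PBS-treated cell that held 29 Cxcr4 UMIs it was 160.0 and 75.0, from 1 and 3 Cxcr4 UMIs. These counts are too small to read a direction in that state. Counts of 2 genes share no common length or capture scale, so that only the change of this ratio and not its size can be read.

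The mix of states differed between the libraries, and it touched the receptors more than the ligand. The Gal-Chga state made up 14.4% of the cells with PBS and 8.73% with cGAMP, and the Selp-Ackr1 state 16.5% and 28.3%. With PBS levels in each state and the cGAMP mix, Cxcr4 would stand at 63.0 CPM, a log2 ratio of -0.43, and with cGAMP levels and the PBS mix at 58.3 CPM, a log2 ratio of -0.54. For Ackr3 the mix alone gave -0.33 and the levels alone 0.41, of opposite sign. For Cxcl12 the mix alone gave 0.03 and the levels alone 0.51.

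Leaving out ECs with 3 or more UMIs of the leucocyte, neutrophil, macrophage, T or NK and B cell markers, 319 with PBS and 415 with cGAMP, gave log2 ratios of 0.37 for Cxcl12, -1.14 for Cxcr4 and 0.11 for Ackr3. Leucocytes are a known source of Cxcr4 and fibroblasts of Cxcl12. Leaving out 115 and 42 ECs with 3 or more UMIs of the fibroblast and mural markers gave 0.27, -1.15 and 0.05, the last with an interval of -0.01 to 0.11.

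Cxcr4 and Ackr3 were found together more often than their shares give, by a factor that changed with depth. Among the thinned ECs, 230 of 2447 PBS-treated cells held both receptors where 113 were expected from the product of their shares, 2.03 times as many, and 77 of 1327 cGAMP-treated cells where 31.3 were expected, 2.46 times as many. When the expectation was formed within each state and added up, the values were 1.31 and 1.37. Of the PBS-treated ECs with Cxcr4, 40.4% also held Ackr3, against 13.7% of those without it, and with cGAMP these shares were 51.0% and 16.8%. Cxcl12 with Cxcr4 gave 1.09 and 1.31 over the library and 0.97 and 0.89 within states. Cxcl12 with Ackr3 gave 0.98 and 1.33 over the library, the latter with an interval of 1.05 to 1.65, and 1.003 and 1.10 within states. At 2500 UMIs Cxcl12 with Cxcr4 had 1.82 (1.21 to 2.62) with cGAMP and Cxcl12 with Ackr3 had 1.31 (1.01 to 1.67) with PBS, while Cxcr4 with Ackr3 had 1.51 and 1.49 without thinning.

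**Figure D4:**
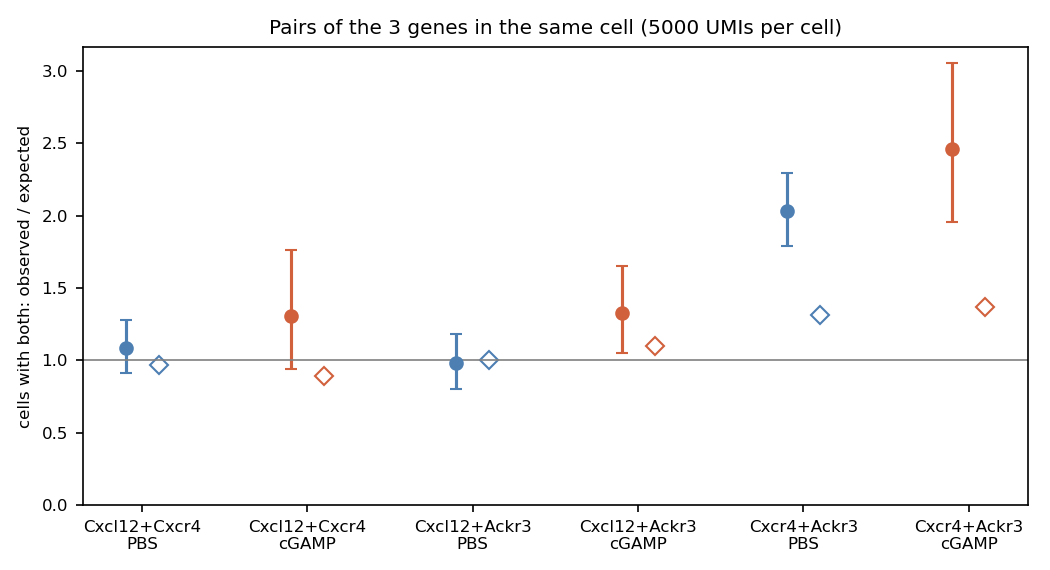
Cells that hold both genes of a pair over the number expected, after thinning to 5000 UMIs, with PBS in blue and cGAMP in red. Filled circles use the shares of the whole library and have exact binomial 95% intervals of the observed cells, and open diamonds use the shares within each state; only Cxcr4 with Ackr3 stands near 2 and above, at 2.03 and 2.46, falling to 1.31 and 1.37 within states.

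The Gal-Chga state held the receptor pair most often, in 32.3% and 31.6% of its thinned ECs, followed by the Ankrd1-Pgf state with 24.0% and 23.3%. Within the Gal-Chga state the pair stood at 1.19 (1.02 to 1.38) and 1.18 (0.87 to 1.53) times expectation. Of the thinned ECs of the Gal-Chga state, 29.2% with PBS and 25.6% with cGAMP held both receptors without the ligand. None of the 3 genes was held by 23.1% and 19.7% of the ECs of that state. In the Ankrd1-Pgf state 15.7% and 16.7% of the ECs held all 3 genes, against 2.04% and 1.81% of all ECs. Counted regardless of the others, each gene was frequent there, at 62.8% for Cxcl12, 62.8% for Cxcr4 and 36.4% for Ackr3 with PBS. With cGAMP these shares were 78.3%, 38.3% and 43.3%. Within that state Cxcl12 with Cxcr4 stood at 0.96 and 0.94 times expectation, and Cxcl12 with Ackr3 at 1.01 and 0.98. Cxcr4 with Ackr3 stood at 1.05 (0.73 to 1.43) and 1.40 (0.81 to 2.17). In the Selp-Ackr1 state 85.7% and 86.7% of the ECs held none. In the Slc6a6-Lpl state 50 of 57 thinned cells with PBS held Cxcl12, 4 held Cxcr4 and 0 held Ackr3. With cGAMP 37 of 53 held Cxcl12, 1 held Cxcr4 and 6 held Ackr3. Cxcl12 with Ackr3 and not Cxcr4 was held by 0% of these thinned cells with PBS and 5.66% with cGAMP. Without thinning the shares were 13.8% and 40.0%, at a median of 15383 UMIs per cell with PBS and 22769 with cGAMP. In the Igfbp5-Ctsh state Ackr3 stood alone, in 19 of 43 thinned cells with PBS and 28 of 52 with cGAMP, with 2 and 0 cells that held Cxcr4 and none that held Cxcl12.

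The genes most like each member were sought over single cells, by the lower of the Pearson r values of the 2 libraries among 6045 genes with at least 20 CPM, as a description over cells that share their libraries and depth. For Cxcr4 they were Pgf, the placental growth factor that binds VEGFR1 (r of 0.64 with PBS and 0.61 with cGAMP), Lcp2, Kit, Gnb4 and Ackr3 (0.57 and 0.53). For Ackr3 they were Cxcr4, Pgf, Trp53i11, Chst1 and Ptp4a3 (0.44 and 0.45 for the last). For Cxcl12 they were Fads3 (0.39 and 0.46), Gja4, which encodes a connexin of arterial endothelium, Plpp1, Lrrc8c and Sema3g, an arterial semaphorin. The TGF-beta co-receptor gene Eng was the most opposite to both receptors, with -0.51 and -0.50 for Cxcr4 and -0.47 and -0.37 for Ackr3, and Fam167b was the most opposite to Cxcl12, with -0.33 and -0.32. The correlation of Cxcr4 with Ackr3 was 0.37 and 0.36 after the mean of each state was taken out.

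Over the 9 states as points, the genes most like Cxcl12 were Pls3 (r of 0.96 and 0.95), Lrrc8c, Plin2, Picalm and Arhgef28. Those most like Cxcr4 were Lcp2 (0.97 in both libraries), Lxn, Chst1, Nox4 and Acyp1, and those most like Ackr3 were Ntan1 (0.85 and 0.88), Jkamp, Capzb, Pmepa1 and Ppp1r16b. Lrrc8c for Cxcl12 and Lcp2 for Cxcr4 were found over cells and over states alike. The states are sums of the same cells, so the lists are not independent. The r values over states are the highest of 6045 genes over 9 points. Among the genes similar to a receptor over cells or states, Lcp2 had 69.6 CPM with PBS and 32.3 CPM with cGAMP. Chst1 had 102 and 50.3 CPM, and Pgf 238 and 150 CPM. Only some of the similar genes were higher with cGAMP. For Ackr3 these were Jkamp, with 42.7 and 47.0 CPM, and Pmepa1, with 103 and 106 CPM. For Cxcl12 they were Pls3, with 109 and 120 CPM, Plin2, with 75.5 and 91.1 CPM, and Plpp1, with 131 and 147 CPM. The rest of the genes similar to Cxcl12 were lower with cGAMP. They were Fads3, with 20.8 and 14.5 CPM, Gja4, with 52.0 and 22.4 CPM, Lrrc8c, Sema3g, Picalm and Arhgef28. Among the genes similar to a receptor that are not members, all but Jkamp and Pmepa1 were lower with cGAMP.

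The level of the members was also set beside list scores, counted as the UMIs of a list per thinned cell, with the cells of each library cut into 5 groups of like size. The lists are of genes known to respond to hypoxia, Notch and arterial fate, cell division or interferon, and some of their genes also mark the states. From the lowest to the highest hypoxia group, Cxcr4 went from 43.5 to 151 CPM with PBS, with every group above the last, and from 32.7 to 72.2 CPM with cGAMP, where the lower 3 groups lay between 27.1 and 32.7 CPM. Ackr3 went from 33.8 to 103 CPM and from 49.0 to 108 CPM. Cxcl12 with PBS was 111 CPM in the lowest hypoxia group, between 65.5 and 73.0 CPM in the next 3 and 196 CPM in the highest, and with cGAMP it went from 65.0 to 303 CPM.

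Along the Notch and arterial score, Cxcl12 did not rise steadily but was highest in the highest group. With PBS it was 72.8 CPM in the lowest group, 79.6 to 105 CPM in the middle groups and 164 CPM in the highest. With cGAMP it was 117 CPM in the lowest group, 91.9 to 124 CPM in the middle groups and 214 CPM in the highest. Cxcr4 went from 57.3 to 119 CPM and from 21.2 to 73.9 CPM, and Ackr3 from 44.8 to 74.2 CPM and from 41.3 to 99.6 CPM. In the group with the highest cell cycle score all 3 genes were at their lowest in both libraries, at 77.4 and 65.8 CPM for Cxcl12, 41.8 and 17.8 CPM for Cxcr4, and 33.8 and 35.3 CPM for Ackr3. Along the interferon score Cxcl12 went in opposite directions, from 139 down to 76.8 CPM with PBS and from 102 up to 177 CPM with cGAMP. The scores covered different ranges, since the median of the highest group was 20 UMIs with PBS and 58 UMIs with cGAMP, and whether the opposite directions differ was not tested.

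**Figure D5:**
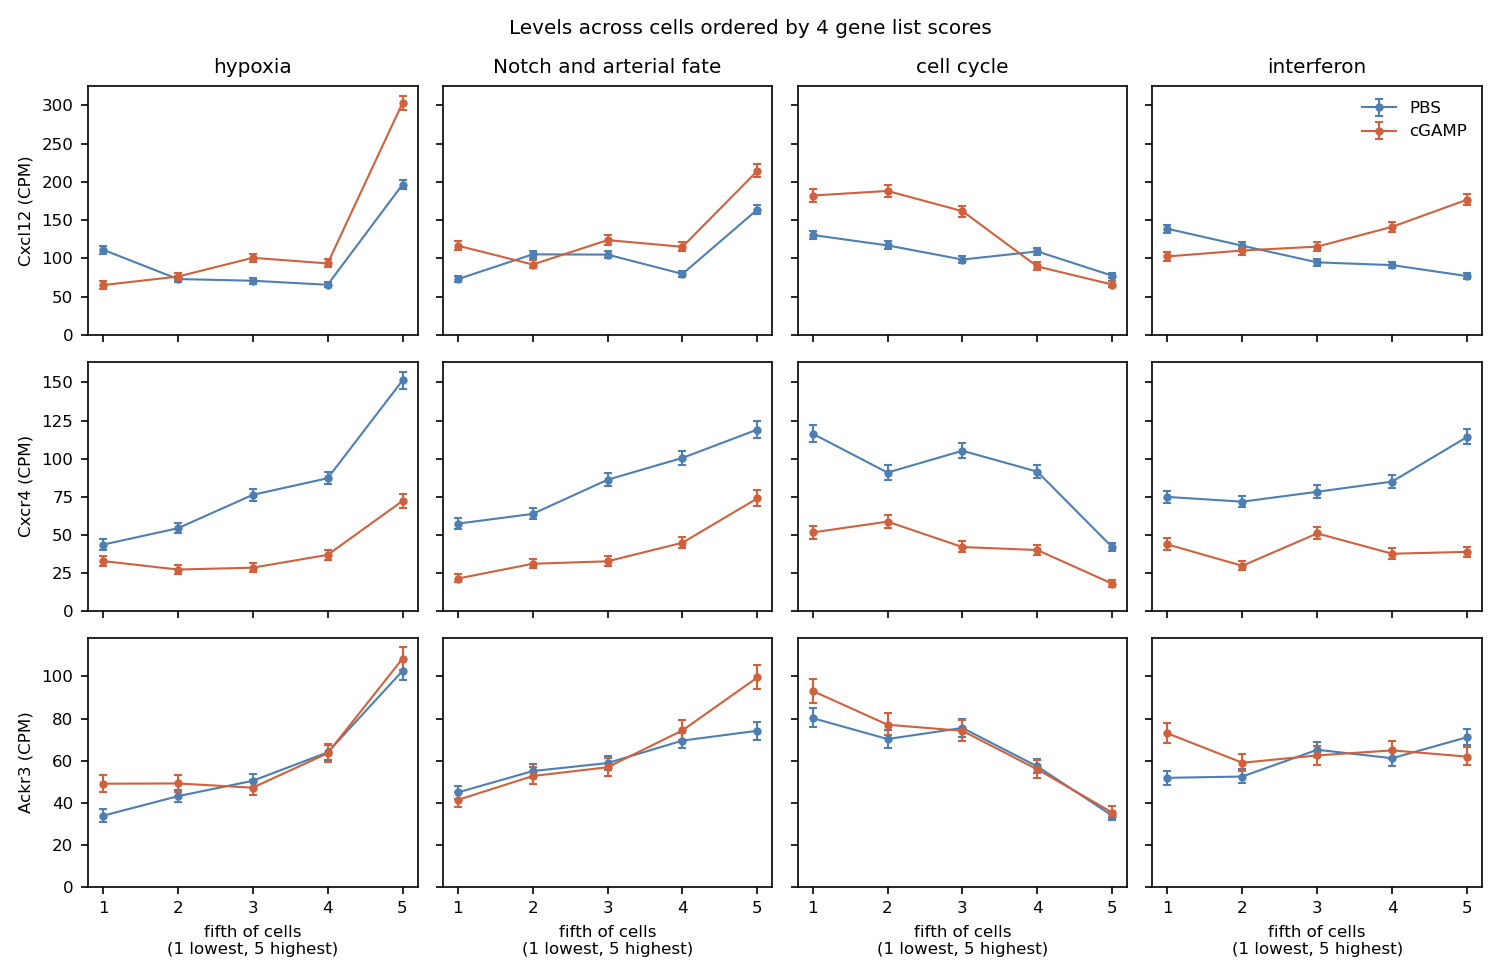
Level of each gene in CPM (rows) in 5 groups of cells ordered by the UMIs of 4 gene lists (columns), with PBS in blue, cGAMP in red and exact Poisson 95% intervals. Cxcr4 and Ackr3 are highest in the highest hypoxia group, at 151 and 103 CPM with PBS, all 3 genes are lowest in the highest cell cycle group, and Cxcl12 runs down with the interferon score with PBS and up with cGAMP.

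The other genes of the axis were compared with all genes measured. Of 47 listed partners and modifiers of CXCL12 signalling, 36 passed 5 CPM, with a median log2 ratio of -0.22 beside -0.08 for all compared genes. Of these, 5 were higher and 31 lower with cGAMP, and 1 in each direction reached 2-fold, beside 1.82% of all compared genes upwards and 1.70% downwards. Cd74, a receptor chain for the alternative CXCR4 ligand MIF and also the invariant chain of MHC class II, had 6.97 and 35.0 CPM. Sdc4, a heparan sulphate proteoglycan named after its values were seen as the lone gene past 2-fold downwards, had 11.3 and 4.92 CPM. Mif itself had 501 and 538 CPM and was highest in the Ankrd1-Pgf state in both libraries, at 1503 and 1464 CPM. The inhibitory G protein gene Gnai2 had 1531 and 1307 CPM, the perlecan gene Hspg2 501 and 321 CPM, and the regulators of G protein signalling Rgs3 and Rgs16 had 94.2 and 73.1 CPM and 53.8 and 37.0 CPM. Adm, whose peptide is also bound by ACKR3, had 216 and 177 CPM over all ECs and 1338 and 1211 CPM in the Ankrd1-Pgf state.

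Other chemokines spanned a wide range of ratios beside the 0.32 of Cxcl12. Of 11 compared chemokines besides Cxcl12, 9 were higher with cGAMP, 5 of them 2-fold or more, with a median log2 ratio of 0.97. Among these, Cxcl9 had 130 and 1151 CPM, Cxcl10 92.6 and 245 CPM, and Ccl5 6.47 and 461 CPM, all attractants of T cells. Cxcl16 and Ccl4 were 2-fold or more higher as well, and Ccl21a was 2-fold or more lower, all at 7.07 CPM or less and chosen for naming after their values were seen. Ccl2, a monocyte attractant, had 202 and 249 CPM and, like Cxcl12, was highest in the Ankrd1-Pgf state with cGAMP, at 1026 CPM. Among the other chemokine receptors 2 passed 5 CPM, Ccrl2, named here after its values were seen, and Ackr1. Ackr1, which binds inflammatory chemokines on venules, had 39.5 and 171 CPM.

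The lists of pathways known to act on the axis are given beside the 1.82% of all compared genes that were 2-fold or more higher, the 1.70% that were lower and the median log2 ratio of -0.08. Of 16 compared hypoxia genes, 15 were lower with cGAMP and 2 by 2-fold or more, with a median log2 ratio of -0.45. Egln3, an oxygen sensor and target of hypoxia, had 25.3 and 5.54 CPM, and Mxi1 27.7 and 11.5 CPM. Of 15 compared Notch and arterial genes, 12 were lower and 2 by 2-fold or more, Gja4 with 52.0 and 22.4 CPM and the netrin receptor gene Unc5b with 46.0 and 18.9 CPM, with a median of -0.32. Of 15 genes of the VEGF and tip response, 9 were lower and only Unc5b by 2-fold or more, with a median of -0.10. Of 6 flow genes, 5 were higher, and Timp3 was the lone one past 2-fold, with 156 and 326 CPM. All 25 interferon genes were higher, 17 of them 2-fold or more, with a median of 1.36, and of 14 TNF/NF-kB genes 13 were higher, 3 of them 2-fold or more, with a median of 0.49.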

How the data were processed

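The study sorted tumour ECs by FACS, aligned droplet-based scRNA-seq reads to mm10 with Cell Ranger 3.0.0 and processed them with Seurat 3.1.1; the labels and the methods differ on the version of the reagent kit. The authors removed cells with less than 500 genes or over 10% mitochondrial UMIs, genes in under 3 cells, and clusters lacking Pecam1. What the authors deposited is on a natural log scale, ln(1 + UMIs per 10000 UMIs of the cell). They were turned back into UMI counts, and 100% of values came within 0.01 of a whole number. UMIs were summed per library and state. Intervals were exact Poisson for levels, Clopper-Pearson for shares and conditional binomial for ratios, at 95%. Shares and pairs of genes were counted after thinning each cell to 5000 UMIs, leaving out 70 shallower ECs of the PBS and 13 of the cGAMP library. Doublets were not removed and no caller was run.

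For states, Seurat 5.3.0 (R 4.3.3) was run with 2500 variable genes of which 2218 were kept after leaving out the 3 members and genes with a 2-fold difference between libraries, integration anchors, 30 principal components and a Louvain resolution of 0.5, a value not given in the sources used here. States were named from fixed markers, 2-fold above the other states with 5 CPM added, so that names need not be those of the study. For counts of 2-fold differences, genes at 5 CPM or more in either group were used, and counts under 3 UMIs were set to 3. The members and the gene lists were chosen with earlier results of these data known. Genes named are the members, listed genes with at least 20 CPM (others are said to be chosen after their values were seen), and for each member the 5 most similar and 3 most opposite genes over cells and the 5 most similar over states. Positions are from GENCODE vM21 and promoters from RefSeq on GRCm38.p6. Ratios, thinning and pair counts were checked on simulated data. The analysis used Python 3.11.15, numpy 2.4.6 and scipy 1.17.1.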

Additional observations from a re-analysis of the deposited data

Results flagged for a closer look

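The log2 ratio of cGAMP over PBS for Cxcl12 had opposite signs in different endothelial states, at 1.49 in the Esm1-Apln state (45.2 and 127 CPM) and -1.42 in the Selp-Ackr1 state (30.5 and 11.4 CPM). These were the highest and the lowest ratios among the states whose counting intervals did not hold 0. The difference was not tested, since each treatment had 1 library.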

How the results depend on the processing

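Each treatment had 1 library, and no replicate was left out. No paired analysis was possible because each group held 1 sample. Of 67 recomputed values, 29 stayed within the counting error of the value reported, 32 moved beyond it and 6 changed direction. The 2 exclusions of cells with markers of other cell types, the pairs at 2500 UMIs and the Igfbp5-Ctsh state without 1 cell were chosen after seeing the data. The cause of the changes was not tested.

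With the mean of per-cell CPM, the log2 ratio of cGAMP over PBS was 0.11 for Cxcl12, -1.01 for Cxcr4 and 0.26 for Ackr3, and with median-of-ratios scaling it was 0.40, -0.9998 and 0.18. With the proportions of the states held equal it was -0.71 for Cxcr4 and 0.32 for Ackr3. A mitochondrial limit of 5% gave 0.25 for Cxcl12 and -1.17 for Cxcr4, and leaving out the top 1% of cells gave -1.25 for Cxcr4. Without cells that held leucocyte-type markers Cxcl12 had 0.37, and without those with fibroblast or mural markers 0.27.

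Cxcl12 in arterial-like over other ECs had a mean log2 ratio of 1.44, and of 1.55 at resolution 0.3, 1.85 without integration, 1.74 with all variable genes and 1.51 from marker ranks without clustering. Cxcr4 in tip-like ECs had 2.81, and 2.65 at resolution 1.2, 2.92 without integration, 2.68 with all variable genes and 2.91 from marker ranks. Clustering with all variable genes put the 3 members back, so there they helped to define the states in which they were measured. Ackr3 in stalk-like ECs had -2.39, and -1.40 at resolution 0.3, -0.96 without integration and -1.42 from marker ranks.

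The difference in the share of ECs with Cxcl12 (cGAMP minus PBS, -0.57 percentage points) was 1.59 after thinning to 2500 and 1.98 after thinning to 10000 UMIs. For Cxcr4 (-11.9) it was -7.58, -16.4 and, without thinning, -18.3, and for Ackr3 (0.82) it was 6.44 without thinning. Cxcl12 with Ackr3 in the same PBS-treated cell, at 0.98 times expectation, had 1.31 at 2500 UMIs, 1.001 at 10000 UMIs and 1.06 without thinning. Cxcl12 with Cxcr4 with cGAMP, at 1.31, had 1.82 at 2500 UMIs. Cxcr4 with Ackr3 had 1.51 with PBS and 1.49 with cGAMP without thinning, and 1.93 with cGAMP at 10000 UMIs. Without the PBS-treated cell with the most Cxcr4 UMIs, the log2 ratio of Cxcr4 in the Igfbp5-Ctsh state was 0.97 in place of -3.84.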
